A study of Arabidopsis thaliana with 44 samples.

Results

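The genes described here are 10 regulators of leaf polarity, the difference between the upper (adaxial) and lower (abaxial) side of a leaf. They were the KANADI gene KAN1 (AT5G16560), the YABBY genes FIL (AT2G45190), YAB2 (AT1G08465), YAB3 (AT4G00180) and YAB5 (AT2G26580), the Asymmetric Leaves genes AS1 (AT2G37630) and AS2 (AT1G65620), and the auxin response factor genes ARF2 (AT5G62000), ARF3 (AT2G33860) and ARF4 (AT5G60450). The genes were taken by locus identifier from the 60885 features of the count table. All 10 had enough counts to be among the 17557 features tested.

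The material was bulk RNA from the shoot apex of Arabidopsis thaliana, ecotype Col-0 in every group, taken 7 days after germination from plants on soil under a cycle of 16 h light and 8 h dark. Libraries were prepared with Smart-seq3, which copies whole transcripts into cDNA. The study asks what ARGONAUTE proteins do in the shoot meristem, and its 44 libraries fell into 9 groups. The mutant groups, with 4 libraries each, were the single mutants ago4, ago5 and ago9, their combinations ago4ago9, ago5ago9 and ago4ago5ago9, and ddm1. AGO4 and AGO9 are ARGONAUTE proteins that direct DNA methylation, AGO5 is a further ARGONAUTE protein, and DDM1 is a chromatin remodeller that maintains DNA methylation. The wild-type groups were labelled wt21 and wt col-0, with 8 libraries each, and the labels do not say how they differ. The labels give no allele names and do not say whether the libraries of a group came from separate plants, so p-values measure only the spread between these libraries.

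On the RefSeq assembly TAIR10.1, KAN1 lies at chr5:5406863-5411766, FIL at chr2:18628252-18630779, YAB3 at chr4:72545-75576, YAB5 at chr2:11303455-11307010 and AS1 at chr2:15781232-15783480, all on the minus strand. YAB2 (chr1:2675813-2679824) and AS2 (chr1:24398143-24400989) are on the plus strand. ARF2 (chr5:24910191-24915395) is on the plus strand, and ARF3 (chr2:14325206-14328978) and ARF4 (chr5:24308255-24312784) are on the minus strand.

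A leaf starts as an outgrowth on the flank of the shoot apical meristem, and its blade expands where adaxial and abaxial identity meet. KANADI, YABBY and ARF3 and ARF4 transcription factors act on the abaxial side, where KANADI proteins and the ARFs oppose the adaxial HD-ZIP III proteins. AS1, a MYB protein, and AS2, a LOB-domain protein, form a complex that keeps some class I KNOX meristem genes and ARF3 low in the leaf. AS2 acts on the adaxial side. ARF2, ARF3 and ARF4 RNAs are cut by trans-acting small interfering RNAs (tasiRNAs). These come from the non-coding TAS3 RNA after miR390 and AGO7 have acted on it, a path that uses an ARGONAUTE protein other than the ones mutated here.

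The sequence that sets the 3 ARF genes apart from the other members was read from the RefSeq assembly TAIR10.1. The TAS3 window with the best summed pairing to all 3 ARF transcripts was searched, counting 1 for a mismatch and 0.5 for a G:U pair over 21 bases. Capitals mark the 19 bases that all sites share, and every sequence is written 5′ to 3′ as DNA.
TAS3 window: tttcttgaccttgtaagaccc
ARF2: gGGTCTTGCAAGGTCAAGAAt
ARF3, first site: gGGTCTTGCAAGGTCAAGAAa
ARF3, second site: aGGTCTTGCAAGGTCAAGAAa
ARF4, first site: aGGTCTTGCAAGGTCAAGAAa
ARF4, second site: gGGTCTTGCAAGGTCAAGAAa

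The TAS3 window lies at chr3:5862205-5862225 on the plus strand, in the non-coding RNA AT3G17185. ARF2 held 1 site, at chr5:24913262-24913282 on the plus strand, with a score of 1.5. ARF3 held 2 sites on the minus strand, at chr2:14325941-14325961 with a score of 0.5 and at chr2:14325821-14325841 with a score of 1.5. ARF4 also held 2 sites on the minus strand, at chr5:24309717-24309737 with a score of 1.5 and at chr5:24309507-24309527 with a score of 0.5. All 5 sites lay in coding sequence. The shared 19-base sequence occurred on the sense strand in the exons of 3 of 37885 nuclear genes (0.00792%), which were these 3 ARF genes, and on the antisense strand in 0. A match describes these letters and does not show that the RNA is cut.

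Library totals ran from 4474807 to 10620084 estimated counts (median 6644236), and the values below are CPM, counts scaled to a common library total with trimmed-mean (TMM) factors. DDM1 RNA was 10.2 to 14.3 CPM in wt col-0 replicates 1 to 4 and 0.147 to 0.540 CPM in ddm1. AGO4 RNA was 19.6 to 27.9 CPM in wt col-0 replicates 1 to 4, at most 1.21 CPM in ago4 and 0.952 CPM in ago4ago9, but 0 to 23.1 CPM within ago9 and 15.6 to 24.9 CPM in ago4ago5ago9. The label ago4ago5ago9 and part of the label ago9 are thus at odds with AGO4 RNA, and both names below stand for the libraries so labelled. Wild-type replicates 5 to 8 differed from replicates 1 to 4 in 18.6% of features, so replicates 1 to 4 of wt col-0 were the control. The shoot apex label was set beside marker genes. Summed meristem markers reached 11.9 to 30.4 CPM in every library. WUS was at 0 in every library of 7 of the 11 sets (a count of 0 allows up to 0.711 CPM, counting error only). The 4 floral markers (LFY, AP1, AP3 and AG) summed to at most 1.01 CPM, in ago4, and none had enough counts to test. AP3 was at 0 in all sets but ddm1, and AG was at 0 in ddm1 and the wild-type sets. The 6 root markers summed to 6.83 to 14.7 CPM, of which SHR gave 5.12 to 11.6 CPM and WOX5 0.214 to 3.04 CPM, while RSL4 and COBL9 were at most 1.07 CPM and PLT1 and EXPA7 were at 0 in all 44 libraries.

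Per kb of the longest annotated transcript, AS1 RNA was the most abundant of the 10, with a median of 32.1 CPM per kb over the 44 libraries. FIL and YAB3, a closely related pair of YABBY genes, followed with medians of 17.7 CPM per kb each, and ARF2 had 15.1 and YAB2 10.8 CPM per kb. YAB5 and ARF3 had medians of 5.54 and 5.50 CPM per kb, and ARF4 had 3.95. AS2, the partner of AS1, had 1.73 CPM per kb, and KAN1 was the least abundant, with 1.17 CPM per kb. This order holds if reads along the whole transcript were counted, which the sources do not state. Without division by length the median of ARF2 (57.9 CPM) was near that of AS1 (61.7 CPM) and above those of YAB3 (25.9 CPM) and FIL (19.7 CPM). KAN1 rested on 5 to 64 counts a library and AS2 on 12 to 57, so both are measured with less precision than AS1, which had 234 to 1371 counts. The coefficient of variation over all 44 libraries was 11.2% for ARF2, 18.7% for AS1 and 34.6% for KAN1, and the other 7 lay between ARF2 and KAN1. Means of the 11 sets (7 mutant groups and each wild type in its replicates 1 to 4 and 5 to 8) differed by at most 1.79-fold, in KAN1, and by 1.22-fold in ARF2. When sets were ordered by mean, neighbours lay within their SD in 10 of 10 steps for 7 of the genes and in 9 of 10 for AS1, ARF3 and ARF4.

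**Figure D1:**
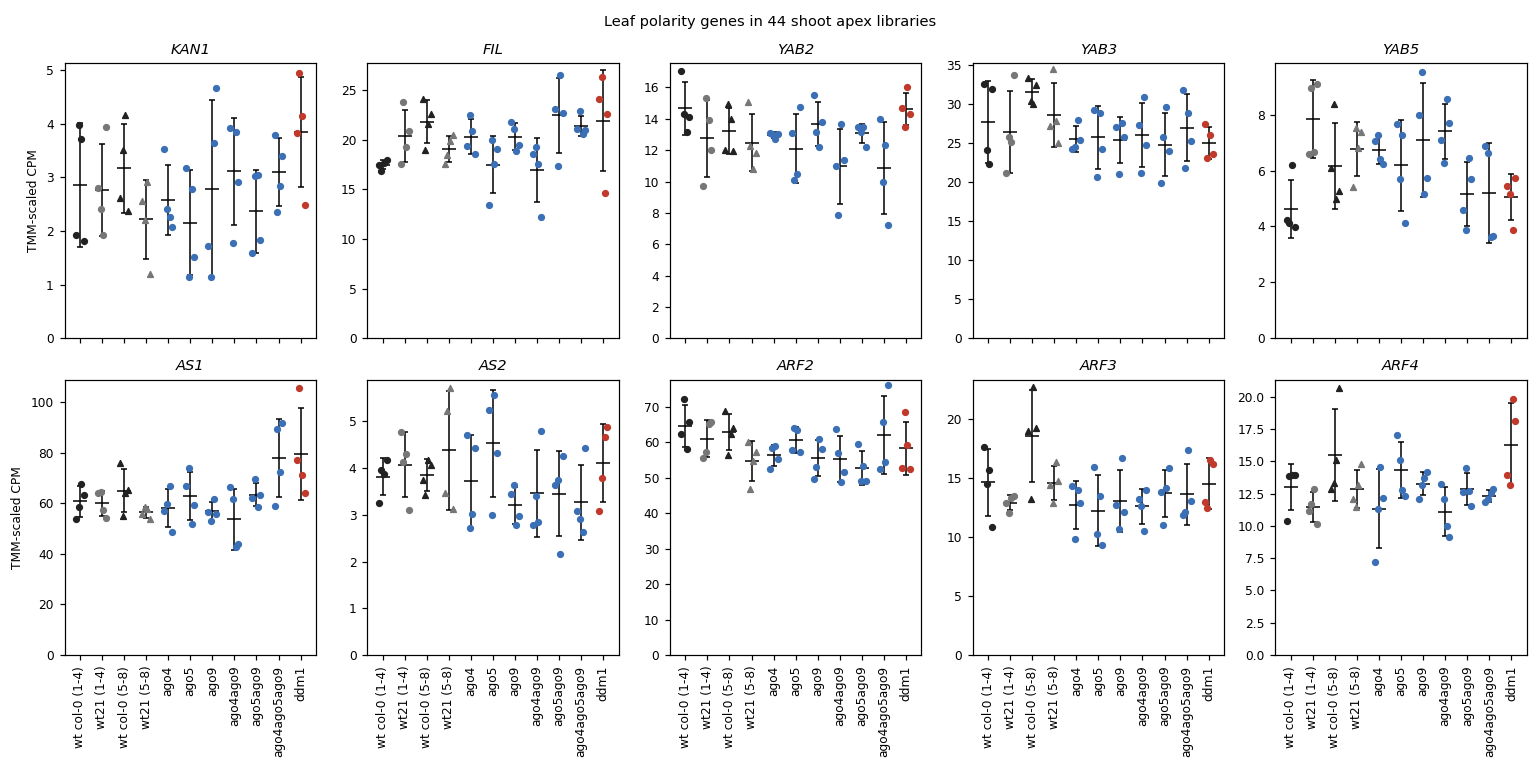
TMM-scaled CPM (vertical axis, from 0) of the 10 leaf polarity genes in each of 44 libraries. Points are libraries (triangles are wild-type replicates 5 to 8), and the horizontal bar and whiskers give the mean ± SD of the 4 libraries of a set; black is wt col-0, grey wt21, blue the ago groups and red ddm1. The ddm1 points of AS1 reach 105.7 CPM, and the points of most sets overlap for every gene.

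Leaf polarity genes showed no called difference in the ago groups. Each group was compared with wt col-0 replicates 1 to 4 by edgeR's quasi-likelihood test, with Benjamini-Hochberg adjustment over all 17557 features and a call at an adjusted p under 0.05. Of 60 tests of a member in an ago group, 0 were called, the lowest adjusted p was 0.291, and 10 had an unadjusted p under 0.05. Over all features the share with an unadjusted p under 0.05 was lower than 10 of 60, from 7.32% in ago5 to 13.5% in ago4. With limma voom 0 members were called in every ago group, and with DESeq2 0 of those to which it gave an adjusted p. DESeq2 gave none to any member in ago9 and to some members in ago4 and ago4ago5ago9, so it cannot speak for them there. Few features of any kind were called: 0.319% for ago4, 0.0171% for ago5, 0.0114% for ago9, and for the combinations 0.211% (ago4ago9), 0.131% (ago5ago9) and 0.0114% (ago4ago5ago9). These counts moved with single libraries and with the tool: 56 features in ago4 became 21 to 80 when 1 library was left out and 218 with DESeq2, 2 in ago9 became 1 to 10 and 59, and 23 in ago5ago9 became 4 to 103 and 103. Likewise 37 in ago4ago9 became 34 to 85 and 85, and 2 in ago4ago5ago9 became 2 to 14 and 28. In 55 of the 60 tests the 95% interval of the fold change lay within 2-fold either way. In the ddm1 group 1 of the 10 members was called, AS1, against 19% of all features. An unadjusted p under 0.05 was reached there by 2 members and by 30.4% of all features. Over all 70 tests, which share the same 4 control libraries, 17.1% had an unadjusted p under 0.05, against 13.4% of the tests of all features, and the median size of the log2 fold change was 0.16 against 0.20.

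**Figure D2:**
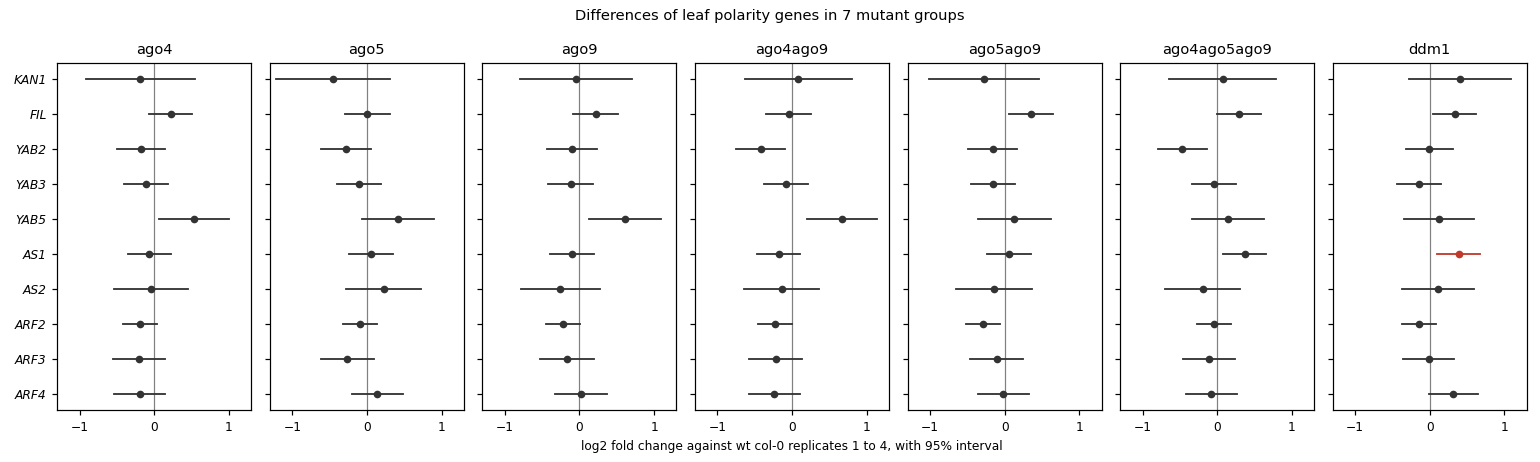
Log2 fold change of each leaf polarity gene (rows) in each of 7 mutant groups (panels) against wt col-0 replicates 1 to 4, with 95% intervals from edgeR. Red marks the 1 called difference, AS1 in ddm1; the log2 fold changes run from -0.47 to 0.67.

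KAN1, the abaxial GARP-family transcription factor, had wide intervals. Its values in wt col-0 replicates 1 to 4 were 1.92, 3.97, 3.72 and 1.81 CPM, and those of ddm1 were 3.82, 4.94, 4.14 and 2.48 CPM. The groups overlapped, and the log2 fold change of 0.40 ± 0.34 (SE) was not called. In the ago groups its log2 fold changes ran from -0.45 to 0.09, with intervals reaching from 0.429-fold to 1.74-fold. KAN1 overlaps genes on the other strand, AT5G16550 and AT5G02555, by 25 and 435 bases of the annotation, and the sources do not say whether counting used strand.

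FIL, which promotes blade growth from the abaxial side, varied little in its control. It was at 17.4, 16.9, 17.7 and 17.9 CPM in wt col-0 replicates 1 to 4 and at 24.1, 26.3, 14.7 and 22.6 CPM in ddm1. The other ddm1 libraries lay above every control library and replicate 3 lay below them all. The log2 fold change was 0.33 ± 0.14 (SE, edgeR adjusted p = 0.0990) with all 4 ddm1 libraries and 0.48 (adjusted p = 0.00848) without ddm1 replicate 3. Against wt21 replicates 1 to 4, which were at 17.6, 23.8, 19.3 and 20.9 CPM, the log2 fold change of FIL in ddm1 was 0.11 (adjusted p = 0.669). Among the ago groups FIL had its highest log2 fold change in ago5ago9, 0.35 ± 0.15 (adjusted p = 0.331), with values of 23.1, 17.4, 26.6 and 22.7 CPM.

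YAB3, which acts redundantly with FIL, differed from wt col-0 replicates 1 to 4 by log2 fold changes of -0.16 to -0.05 in the mutant groups, all 7 below 0 and none called. Its control libraries spanned 22.3 to 32.6 CPM, wider than those of ddm1 (23.1 to 27.5 CPM), which they enclosed. YAB2, a YABBY gene of the leaf blade, was at 17.1, 14.3, 13.2 and 14.1 CPM in wt col-0 replicates 1 to 4. It was at 13.99, 9.99, 12.3 and 7.25 CPM in ago4ago5ago9 and at 10.98, 7.89, 13.7 and 11.4 CPM in ago4ago9. Each of these groups had 3 libraries below the lowest control and 1 within the control range. The log2 fold changes were -0.47 ± 0.16 (SE, edgeR adjusted p = 0.305) and -0.42 ± 0.16 (adjusted p = 0.403), and the differences in the other 4 ago groups were also below 0 and not called. In ddm1, YAB2 was at 13.5 to 16.0 CPM, within the control range, with a 95% interval of 0.80-fold to 1.24-fold.

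YAB5, a further YABBY gene of the leaf, depended on which wild type served as the control. Its values were 4.22, 4.11, 6.20 and 3.99 CPM in wt col-0 replicates 1 to 4 and 6.58, 8.96, 6.65 and 9.10 CPM in wt21 replicates 1 to 4. These wild-type sets did not overlap, and the log2 difference of 0.75 ± 0.23 (SE, unadjusted p = 0.00262) had an edgeR adjusted p of 0.821. In replicates 5 to 8 YAB5 was at 4.97 to 8.36 CPM in wt col-0 and 5.39 to 7.53 CPM in wt21, overlapping ranges with a log2 difference of 0.13 ± 0.21 (unadjusted p = 0.535, not called by edgeR). In the comparison of replicates 1 to 4, 0% of features were called by edgeR (789 had an unadjusted p under 0.05) and DESeq2 called 4. All 6 ago groups had a higher YAB5 mean than wt col-0 replicates 1 to 4, by log2 fold changes of 0.13 to 0.67, none called (lowest adjusted p 0.291). Against wt21 replicates 1 to 4 the log2 fold changes of YAB5 were below 0 in all 6, from -0.62 to -0.08, none called. YAB5 in ago4ago9 was at 7.07, 6.26, 8.55 and 7.71 CPM, all above wt col-0 replicates 1 to 4 and within or below the range of wt21 replicates 1 to 4. In ago4 it was at 7.06, 7.26, 6.41 and 6.22 CPM, likewise above every wt col-0 control. Within ago9, replicates 1 and 2 (AGO4 RNA at most 0.215 CPM) were at 7.97 and 9.53 CPM. Replicates 3 and 4 (AGO4 RNA 20.8 and 23.1 CPM) were at 5.14 and 5.72 CPM. With 2 libraries a side, a link between YAB5 and AGO4 RNA was not tested. In ddm1 YAB5 was at 5.44, 5.17, 3.87 and 5.74 CPM, which against wt21 replicates 1 to 4 had fallen by 0.62 on the log2 scale (adjusted p = 0.0449). Against wt col-0 replicates 1 to 4 the same ddm1 libraries gave 0.13 ± 0.23 (adjusted p = 0.764), so the direction turned with the control.

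AS1 was the 1 member called in ddm1. It was at 53.7, 58.4, 67.7 and 63.2 CPM in wt col-0 replicates 1 to 4 and at 77.0, 105.7, 71.2 and 64.1 CPM in ddm1. Replicates 1, 2 and 3 of ddm1 lay above the highest control, replicate 2 far above, and replicate 4 lay within the control range. AS1 rose 1.31-fold (95% interval 1.07 to 1.60; log2 fold change 0.39 ± 0.14 SE), with an edgeR adjusted p of 0.0497, next to the threshold. Against wt21 replicates 1 to 4 (63.9, 64.2, 57.3 and 54.2 CPM), AS1 was higher by 0.41 on the log2 scale (adjusted p = 0.0392). Without ddm1 replicate 2 the log2 fold change against wt col-0 replicates 1 to 4 was 0.22 (adjusted p = 0.346), so the call rested on that library. Without wt col-0 replicate 1 the adjusted p was 0.112 and without replicate 2 it was 0.0822. The call was also lost with limma voom (adjusted p = 0.0677), with only the compared groups in the edgeR model (0.0955), with all 8 wt col-0 libraries as control (0.0536) and with the replicate number as a block (0.0535), so 7 of 17 alternatives ended it.

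AS1 shares 330 bases of its annotated span with ACT1, an actin gene on the other strand, and reads from that stretch cannot be told apart if counting ignored strand, which the sources do not state. ACT1 RNA rose in ddm1 too, from 26.0 ± 3.55 to 34.0 ± 2.71 CPM (mean ± SD, n = 4; log2 fold change 0.39 ± 0.12 SE, edgeR adjusted p = 0.0140). ACT1 also rose in wild-type replicates 5 to 8 against 1 to 4, by a log2 fold change of 0.35 (adjusted p = 0.00198), where that of AS1 was 0.01 (95% interval 0.87-fold to 1.16-fold). The part of reads from the shared stretch in the AS1 difference was not tested. AS1 was also high in ago4ago5ago9, at 58.8, 89.4, 72.2 and 91.6 CPM. All but replicate 1 lay above every wt col-0 control, yet the log2 fold change of 0.37 ± 0.14 was not called (adjusted p = 0.355). In the other 5 ago groups the log2 fold changes of AS1 were between -0.18 and 0.06. AS2 had log2 fold changes of -0.25 to 0.23 in the mutant groups, none called, and in ddm1 it was at 3.09, 3.78, 4.67 and 4.88 CPM against 3.26 to 4.17 CPM in wt col-0 replicates 1 to 4. The ddm1 values of AS2 thus enclosed those of the control, and the interval of its fold change was 0.77 to 1.51.

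ARF4, the abaxial auxin response factor with 2 of the TAS3-matching sites shown above, was at 10.4, 13.89, 13.94 and 13.95 CPM in wt col-0 replicates 1 to 4 and at 13.96, 13.2, 19.9 and 18.2 CPM in ddm1. Replicates 3 and 4 of ddm1 lay above all controls, replicate 1 lay at the level of the highest control and replicate 2 lay within their range. The log2 fold change was 0.32 ± 0.16 (SE, edgeR adjusted p = 0.185) and was not called. Against wt21 replicates 1 to 4, which were at 11.2, 11.7, 12.9 and 10.1 CPM and below every ddm1 library, ARF4 rose by 0.50 on the log2 scale (adjusted p = 0.0271). In wt col-0 replicates 5 to 8, however, ARF4 was at 12.9 to 20.7 CPM, a range that enclosed the ddm1 values. The highest of these was replicate 8, and no other wt col-0 library was above 15.2 CPM. ARF4 in the ago groups differed by log2 fold changes of -0.24 to 0.14, none called, with intervals between 0.67-fold and 1.39-fold.

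ARF3, a partner of KANADI proteins that also carries 2 such sites, was at 12.9, 12.4, 16.5 and 16.2 CPM in ddm1, within the 10.9 to 17.6 CPM of wt col-0 replicates 1 to 4. Its log2 fold change there was -0.01 ± 0.17, with an interval of 0.78-fold to 1.25-fold. In the ago groups ARF3 was lower by 0.11 to 0.26 on the log2 scale in all 6, none called. ARF2, which limits organ growth and has 1 site, was measured most precisely. It was at 62.3, 72.2, 58.1 and 65.8 CPM in wt col-0 replicates 1 to 4 and at 59.5, 49.2, 53.3 and 49.1 CPM in ago5ago9, where 3 libraries lay below every control. The log2 fold change was -0.29 ± 0.11 (SE, edgeR adjusted p = 0.294). It was below 0 in all 7 mutant groups (-0.29 to -0.05) and called in none, and the lowest limit of an interval in the ago groups was 0.70-fold. The 6 ago groups share their control libraries, so their common direction in ARF2, ARF3, YAB2, YAB3 and YAB5 also reflects the level of those 4 libraries. Against wt21 replicates 1 to 4 YAB5 was lower in all 6 ago groups, and ARF3 and YAB2 were on both sides of 0. ARF2 and YAB3 stayed below 0 in every ago group but ago4ago5ago9. Log2 fold changes there ran from -0.21 to 0.04 in ARF2 and from -0.08 to 0.08 in ARF3. Those of YAB2 ran from -0.27 to 0.10 and those of YAB3 from -0.09 to 0.02, none called.

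A second comparison set ddm1 against the mean of the 6 ago groups, whose means include no wild-type library; the wild types still enter the model's estimate of the spread. Here 2 members rose, AS1 and ARF4, against 15% of all features called higher and 26.2% called in either direction. AS1 was higher by 0.37 ± 0.11 on the log2 scale (SE, edgeR adjusted p = 0.00673) and ARF4 by 0.38 ± 0.12 (adjusted p = 0.0143). Without ddm1 replicate 2 AS1 was at 0.20 (adjusted p = 0.234). ARF4 was at 0.27 (adjusted p = 0.138) without ddm1 replicate 3 and at 0.32 (adjusted p = 0.0987) without replicate 4. Against wt21 replicates 1 to 4, 3 members were called in ddm1, AS1 and ARF4 higher and YAB5 lower, where 10.8% of features were called higher and 8.09% lower (18.9% in all). Against the mean of both wild types' replicates 1 to 4, AS1 (0.40, adjusted p = 0.0128) and ARF4 (0.41, adjusted p = 0.0264) were called, where 13.8% of features were called higher and 23.9% in all. These comparisons share the 4 ddm1 libraries, and a count of 1 to 3 of 10 members lies near the shares of all features.

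Cell-type markers moved with ddm1. The summed RNA of 8 photosynthesis genes of expanded leaf and cotyledon (RBCS, LHCB and RCA) was 49153 to 75259 CPM in ddm1 and 113340 to 129003 CPM in wt col-0 replicates 1 to 4, and 7 of the 8 were called lower. The summed meristem markers were 18.7 to 30.4 CPM in ddm1 against 15.2 to 18.1 CPM, with 1 of 4 tested called higher. Over the 44 libraries ARF4 had a Pearson r of -0.53 with the photosynthesis sum and AS1 one of -0.34. The other members ran from -0.33 (ARF3) to 0.27 (YAB5), with all but YAB5 below 0. These values share library and depth, include the ddm1 libraries and are given as a description. In bulk apices fewer cells of a type and less RNA per cell cannot be told apart, and the part of these markers in the AS1 and ARF4 differences was not tested. In the ago groups 0 of the 8 photosynthesis genes were called, but their sum lay wholly above the wt col-0 control range in ago4 (147966 to 183614 CPM), ago9 (131052 to 175521 CPM) and ago4ago9 (136543 to 159468 CPM). In wt21 replicates 1 to 4 the sum was 124845 to 150867 CPM, which overlapped the ranges of these ago groups. The median log2 fold change of the 8 genes against wt col-0 replicates 1 to 4 was 0.05 to 0.42 over the 6 ago groups. Its part in the members' values there was not tested.

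The wild types give the spread that the members show without a mutation. Of the 10 members, 0 were called by edgeR between wild-type replicates 5 to 8 and 1 to 4, where 18.6% of all features were called, and 1 had an unadjusted p under 0.05. That gene was ARF3, with 17.6, 14.5, 15.6 and 10.9 CPM in wt col-0 replicates 1 to 4 and 19.0, 13.2, 22.7 and 19.3 CPM in replicates 5 to 8. The wt21 values of ARF3 were 12.1 to 13.5 CPM in replicates 1 to 4 and 12.9 to 16.4 CPM in replicates 5 to 8, and the ranges overlapped in both wild types. Averaged over both, the log2 difference of ARF3 was 0.26 ± 0.12 (SE, adjusted p = 0.130), and without wt col-0 replicate 6 it was 0.32 (adjusted p = 0.0498). The photosynthesis sum was also lower in these replicates (66428 to 91936 CPM in wt col-0), with 4 of 8 genes called lower, and its part in ARF3 was not tested. FIL stood at 24.2, 19.0, 21.6 and 22.6 CPM in wt col-0 replicates 5 to 8, all above replicates 1 to 4, with a log2 difference of 0.32 ± 0.14 (adjusted p = 0.149). In that single comparison of wt col-0 sets, 9.9% of features and 0 members were called, and between the wt21 sets 4.16% and 0. Between wt21 and wt col-0 within replicates 5 to 8, 0.615% of features and 0 members were called, and the test of whether the replicate sets differed by a different amount in the wild types called 0.0342% of features and 0 members.

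Other genes of the polarity pathway were followed through 36 genes in 6 lists, of which 24 had enough counts to test. In the ago groups 0 of the 24 were called by edgeR. For ddm1, 2 rose and 1 fell (12.5% of the 24, against 19% of all features). KNAT6, a class I KNOX meristem gene, rose from 3.71 ± 0.45 to 6.81 ± 1.496 CPM (mean ± SD, n = 4; log2 fold change 0.88 ± 0.22 SE, adjusted p = 0.0024), and its groups did not overlap. PHV, an adaxial HD-ZIP III gene, rose from 14.3 ± 2.31 to 21.8 ± 5.15 CPM (log2 fold change 0.61 ± 0.20, adjusted p = 0.0232), also without overlap. TPR2, a co-repressor of the TOPLESS family, fell by 0.40 on the log2 scale (adjusted p = 0.0390). The other class I KNOX genes had log2 fold changes in ddm1 of 0.55 (STM), 0.20 (KNAT1) and 1.12 (KNAT2), not called.

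Against the mean of the ago groups, 6 of the 24 rose in ddm1 (25%, against 15% of all features called higher) and 0 fell. They were 3 of 4 class I KNOX genes, 2 of 5 HD-ZIP III genes and 1 of 2 other abaxial genes tested. The 4 class I KNOX genes are also the 4 meristem markers tested, so their counts and the meristem marker counts are the same measurement, made in libraries where the photosynthesis markers were lower. The 4 with the lowest adjusted p were KNAT6 (log2 fold change 0.90, edgeR adjusted p = 6.39e-06), STM (0.79, adjusted p = 0.00101), KNAT2 (1.39, adjusted p = 0.0018) and PHV (0.53, adjusted p = 0.0031). In wild-type replicates 5 to 8 against 1 to 4, 4 of the 24 rose (16.7%, against 9.23% of all features called higher) and 0 fell. They were KNAT6 (log2 0.55, adjusted p = 0.0103), the boundary gene CUC3 (1.51, adjusted p = 0.0122), KNAT1 (0.51, adjusted p = 0.0169) and TAS3 (0.40, adjusted p = 0.0175). TAS3, the source of the tasiRNAs that match ARF2, ARF3 and ARF4, was at 12.6 ± 2.19 CPM in wt col-0 replicates 1 to 4 and at 12.3 ± 1.92 CPM in ddm1 (log2 fold change -0.04 ± 0.17), and it was called in 0 of the 7 mutant groups. The other tested genes of that path (AGO7, RDR6, SGS3, DCL4 and DRB4) were called in none of these comparisons, and MIR390A and MIR390B were listed at 0 in all 44 libraries.

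**Figure D3:**
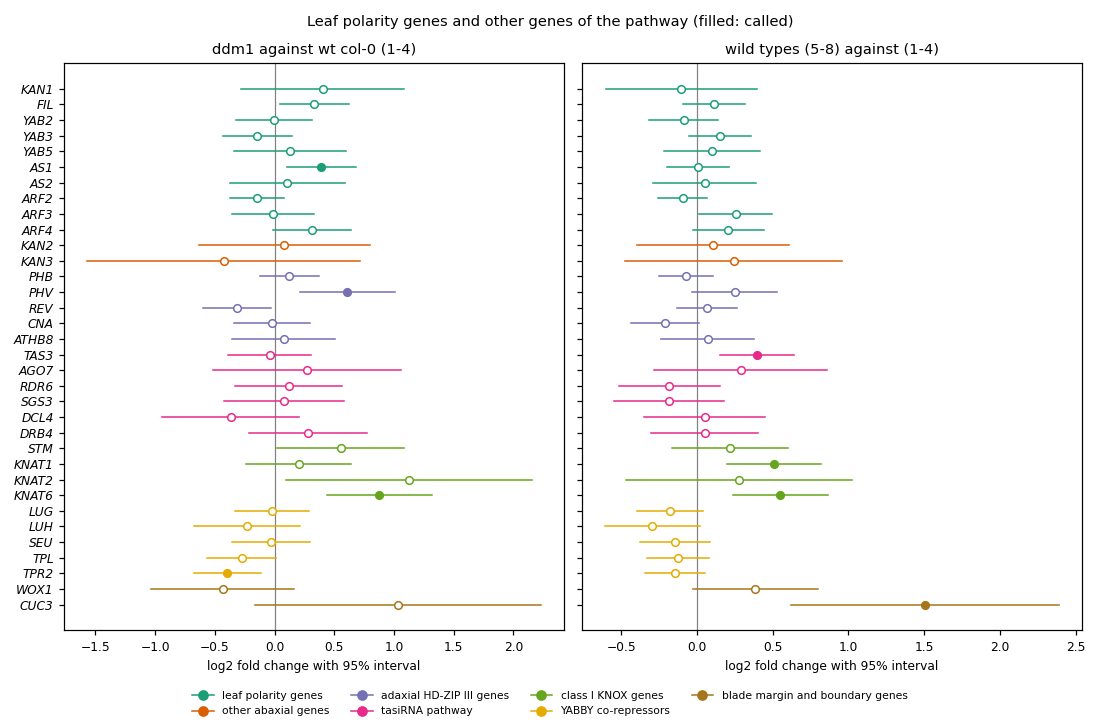
Log2 fold change with 95% interval (horizontal axis) of the 10 leaf polarity genes and the 24 tested pathway genes, for ddm1 relative to replicates 1 to 4 of wt col-0 (left) and in wild-type replicates 5 to 8 against 1 to 4 (right). Filled points are called by edgeR: AS1, PHV, KNAT6 and TPR2 on the left, TAS3, KNAT1, KNAT6 and CUC3 on the right; colours give the list.

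The members did not move as 1 block between libraries. After the mean of its set was taken from each log2 value, the highest Pearson r among the 10 members was 0.51, between AS1 and ARF2, and the lowest was -0.52, between AS1 and YAB2, over 44 libraries. YAB2 and YAB3 had an r of 0.40 and FIL and AS2 one of -0.46. The partners AS1 and AS2 had an r of -0.11 and the related pair FIL and YAB3 one of -0.09. These values share libraries and scaling and are a description, and those with KAN1 and AS2 rest on low counts.

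**Figure D4:**
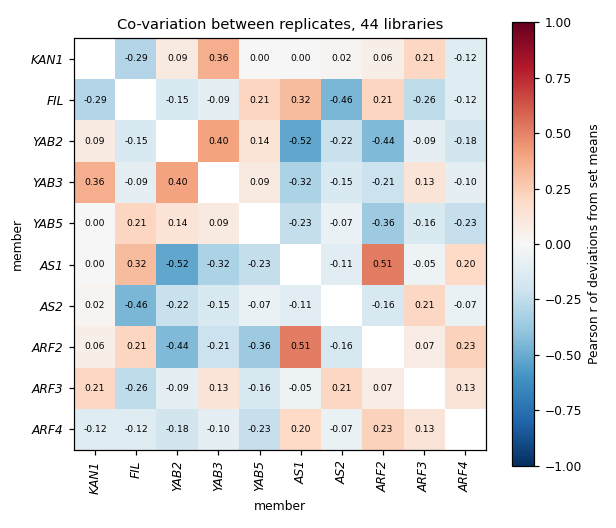
Pearson r between the log2 CPM of each pair of leaf polarity genes over 44 libraries, after the mean of each of the 11 sets was removed (colour scale from -1 to 1). The highest value is 0.51 (AS1 and ARF2) and the lowest -0.52 (AS1 and YAB2).

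For each member, the tested features most like it over the 44 libraries were found by Pearson r of log2 CPM. AS1 was most like AT4G33380 (r = 0.74) and AT3G12950 (r = 0.72), and for ARF2 the value of AT4G10320 was 0.71. YAB3 had APK2B (0.72) and AT5G24870 (0.65), ARF4 had HAI1 (0.69) and AT1G05870 (0.63), and YAB5 had EMB3119 and CCB1 (0.65 and 0.60). ARF3 had AT2G15320 and AT3G59052 (0.65 and 0.64), and YAB2 had TRM24 and AT4G15830 (0.63 and 0.59). KAN1 had AT5G09620 and XIK (0.59 and 0.58), FIL had SQS1 and RPS10 (0.58 for both) and AS2 had NHL1 and AT5G35400 (0.57 and 0.55). None of the 10 members appeared among the features most like another member.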

How the data were processed

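The authors deposited a table of estimated counts without scaling, in which each library has its own column. The submitters' processing notes name TAIR10 and DESeq2. The counting program, the use of strand, the treatment of reads shared between features and whether molecular identifiers were counted are not given in the sources used here. All values were rounded before testing, since 6.26% of those above 0 had a fractional part. For the members the part lost was at most 0.043 of a count. A pair of reporter sequences (4.87e-05% of counts) was left out of library totals and tests. None of the 98 replicate pairs agreed within sampling noise (chi-square over its degrees of freedom 2.84 to 128), and each library was counted once.

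Features were filtered with filterByExpr, scaled by TMM (0.855 to 1.33) and fitted in 1 edgeR quasi-likelihood model with 11 means over 44 libraries (R 4.3.3, edgeR 4.0.16, limma 3.58.1, DESeq2 1.42.0). The common biological coefficient of variation was 0.187. The method was also run on simulated counts in which all sets but ddm1 had equal means. The wild-type sets here differ, so that run does not bear on single calls. Each standard error follows from a fold change and its F statistic; likeness used log2 CPM with a prior count of 2. Replicate numbers did not pair the libraries: no comparison had all pairs of same-numbered libraries correlated above 0.1. Coordinates and sequences come from RefSeq TAIR10.1. The named genes were the 10 members, called genes of the pathway lists (at most 4 a comparison, by adjusted p), the 2 features most like each member (1 of those for ARF2 is not reported here), and AGO4 and DDM1; ACT1, AT5G16550 and AT5G02555 were added for their overlaps with members. The members and lists were chosen with earlier results of these data known.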

Additional observations from a re-analysis of the deposited data

Results flagged for a closer look

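ARF4 in wt col-0 replicate 8 was at 20.7 CPM, far above the other 7 wt col-0 libraries, which were at 10.3 to 15.2 CPM. Its gap to the nearest library was 0.535 of the group's range. This was 1 of 90 combinations of member and group examined in this way, and chance alone marks about 1 in 20. That library is not among the controls of the mutant comparisons.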

How the results depend on the processing

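Of 140 pairs of member and comparison, 130 kept the same call in every alternative run that gave an adjusted p. DESeq2 gave none to any member in ago9 and to some members in ago4 and ago4ago5ago9. The count of members called when ddm1 was set against replicates 1 to 4 of wt col-0 (1, AS1) was 0 with limma voom (AS1 adjusted p = 0.0677), 0 with only the compared groups in the model (0.0955), 0 with all 8 wt col-0 libraries as control (0.0536), 3 with wt21 replicates 1 to 4 and 2 with the mean of both wild types. It ranged from 0 to 2 when single libraries were left out. With the replicate number as a block it was 0 (AS1 adjusted p = 0.0535); the numbers do not pair the libraries, and the block changed no other call on a member. YAB5 in ddm1 turned to -0.62 with wt21 replicates 1 to 4 as control. Leaving out single libraries gave 0 to 1 members called between the wild-type replicate sets and 1 to 3 in ddm1 against the ago groups. Counts over all features depended on the control: with all 8 wt col-0 libraries ago4 rose from 56 to 888 called, ago9 from 2 to 430 and ago5ago9 from 23 to 1131, while 0 members were called in each. KAN1 and AS2 had the fewest counts of the members.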
